A study of Homo sapiens with 16 samples.

Results

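The 10 genes RADX, SMARCA1, LRCH2 and PLS3 on the X chromosome and DSC3, DZIP1, ECHDC1, HSPA4L, SLC6A15 and TMCO1 on autosomes mark 4 control tumours in which the adaptor gene IRS4 is also high. They were selected on their measured values, as genes high in CTRL miR replicates 1, 3, 4 and 6, out of 18377 genes that the array measures through a transcript cluster (a set of probes along 1 transcript) listed with a single gene symbol. All 10 were found, each with 1 cluster. Because the values in these 4 tumours chose the genes, every contrast of the genes with the control tumours is given below as a description without a test. The difference between the SHP2 miRs was not used in the choice, and it was tested. The choice did favour genes that are low in all knockdown tumours, which can limit that difference, so the test is not fully independent of it.

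The samples are tumours of BT474, an established human HER2-positive breast cancer line, grown at the orthotopic site, the mammary fat pad, in immunodeficient mice. Before injection the cells were transduced with a lentiviral vector that expresses, under doxycycline, either CTRL miR, SHP2 miR1 or SHP2 miR2. All groups, controls included, received doxycycline at 2 g per L in the drinking water from tumour formation up to day 30, when 100 ng of total RNA per tumour was labelled for a human gene array. The 16 tumours, with 1 array each, divide into 6 with CTRL miR, 7 with SHP2 miR1 and 3 with SHP2 miR2. The age and strain of the mice were not given in the sources used here. The labels do not tie tumours to mice or to separate transductions, so p-values measure only the spread between these tumours. The tumours also hold cells of the mouse host, whose RNA can bind a human array.

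Values are log2 signals, so that a difference of 1 is a doubling. The array medians lay between 5.21 and 5.41 and the lower quartiles between 3.72 and 4.04. PTPN11, the gene of SHP2, was 8.23 to 8.61 in the 6 control tumours, 6.59 to 7.18 with SHP2 miR1 and 6.34 to 6.53 with SHP2 miR2. It fell by 1.47 ± 0.10 (SE) with SHP2 miR1 and by 1.94 ± 0.12 with SHP2 miR2 (limma adjusted p = 5.11e-08 and 6.97e-09), with no overlap between control and knockdown tumours. IRS4, which encodes a docking protein of insulin and growth factor receptors, was 7.46, 8.29, 7.14 and 7.54 in CTRL 1, 3, 4 and 6 and 3.16 and 3.77 in CTRL 2 and 5. The 10 knockdown tumours had IRS4 values of 2.97 to 3.91. The name of the group describes these measured IRS4 levels and is no separate evidence. The profiles also split into array sets, read from 5 noncoding RNAs and not from the labels, with 7 arrays in set A (their mean at 8.19 to 8.39) and 9 in set B (6.81 to 7.21). Each set holds 2 of the 4 high controls and 1 low control, and all SHP2 miR2 arrays are in set B.

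The 10 genes come from different processes. RADX binds single-stranded DNA at replication forks, and SMARCA1 is the ATPase of ISWI-type chromatin remodelling complexes. ECHDC1 removes ethylmalonyl-CoA, a side product of fatty acid metabolism. PLS3 (T-plastin) bundles actin filaments, DZIP1 acts at the base of the primary cilium in Hedgehog signalling, and HSPA4L is an HSP110-type partner of HSP70 chaperones. SLC6A15 imports neutral amino acids with sodium and is best known from brain, and TMCO1 is a membrane protein of the endoplasmic reticulum (ER) linked to the translocon and to calcium release. DSC3 is a desmosomal cadherin, best known from stratified and basal epithelium, and LRCH2 carries leucine-rich repeats and a calponin homology domain.

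Promoter sequences were at hand for 7 of the 10 genes, in 12 windows that run from 250 bases before to 50 bases after a RefSeq transcript start (GRCh38.p14). RADX, SLC6A15 and LRCH2 have no entry in the table used. The genes share their pattern across the tumours through their choice, and shared control was not tested. Windows of 4 of them are shown as examples. These are SMARCA1 (chrX:129523441-129523740, minus strand), PLS3 (chrX:115560924-115561223, plus strand, the first of its windows), DZIP1 (chr13:95644657-95644956, minus strand) and DSC3 (chr18:31042693-31042992, minus strand). They are printed 5′ to 3′ on the strand of the gene with each CG dinucleotide in capitals.
SMARCA1: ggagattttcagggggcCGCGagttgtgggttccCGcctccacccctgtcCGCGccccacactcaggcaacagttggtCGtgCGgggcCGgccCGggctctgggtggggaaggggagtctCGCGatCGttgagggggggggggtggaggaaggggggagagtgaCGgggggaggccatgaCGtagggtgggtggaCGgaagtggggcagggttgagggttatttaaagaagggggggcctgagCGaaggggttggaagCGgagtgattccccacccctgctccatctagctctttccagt
PLS3: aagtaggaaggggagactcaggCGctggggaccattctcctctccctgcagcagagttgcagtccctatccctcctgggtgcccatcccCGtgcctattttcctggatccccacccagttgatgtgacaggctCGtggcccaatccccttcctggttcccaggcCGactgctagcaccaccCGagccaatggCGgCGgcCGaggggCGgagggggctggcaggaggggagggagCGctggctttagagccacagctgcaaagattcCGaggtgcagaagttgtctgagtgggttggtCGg
DZIP1: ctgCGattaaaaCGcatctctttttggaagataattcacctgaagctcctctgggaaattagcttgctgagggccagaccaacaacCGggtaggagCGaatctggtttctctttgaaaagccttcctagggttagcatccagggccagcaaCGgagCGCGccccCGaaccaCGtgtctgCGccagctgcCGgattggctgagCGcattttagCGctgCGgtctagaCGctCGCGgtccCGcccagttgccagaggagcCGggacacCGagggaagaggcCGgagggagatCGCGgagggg
DSC3: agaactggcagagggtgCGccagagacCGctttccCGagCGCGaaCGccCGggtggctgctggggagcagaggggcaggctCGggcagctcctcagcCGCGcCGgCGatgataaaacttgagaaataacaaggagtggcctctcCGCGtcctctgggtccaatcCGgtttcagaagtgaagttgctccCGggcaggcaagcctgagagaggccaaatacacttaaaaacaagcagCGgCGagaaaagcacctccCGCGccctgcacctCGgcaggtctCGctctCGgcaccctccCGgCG
These windows hold 17, 12, 23 and 25 CG dinucleotides. Over the 12 windows the median was 19.5, and 8 windows were at or above the median of 14 over all 35116 promoters in the table. The other windows held 5 and 18 (ECHDC1), 4 (the second of PLS3), 21, 37 and 13 (HSPA4L) and 26 and 22 (TMCO1, whose windows overlap). Searched on both strands, CCAAT was found in 7 of the 12 windows (6 genes) against 34.6% of all promoters, and GGGCGG, which contains a CG, in 5 windows (4 genes) against 45.0%. TATAAA was in 1 window against 11.5%, CACGTG in 1 (DZIP1) against 7.26%, and TGACGTCA in 0 against 1.85%. Of the printed windows, PLS3 and DZIP1 hold CCAAT and GGGCGG, DSC3 holds CCAAT, and SMARCA1 holds none of the motifs searched. Such matches describe the letters of the window only.

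RADX was 7.95, 8.17, 8.10 and 8.42 in CTRL 1, 3, 4 and 6 and 3.96 and 4.27 in CTRL 2 and 5. With SHP2 miR1 it ranged from 3.78 to 4.20 (median 4.10, n = 7), and with SHP2 miR2 it was 3.91, 4.16 and 3.99. The 4 tumours stood apart from all others, and CTRL 2 and 5 lay among the knockdown tumours. The mean of the 4 was 4.10 above the mean of the other 12 (17.1-fold), and the lowest of the 4 was 3.68 above the highest of the 12. In these whole tumours, fewer cells that express a gene and less of its RNA per cell cannot be told apart. SMARCA1 had values of 7.80, 8.01, 7.75 and 8.09 in the same 4 tumours and 4.22 and 4.26 in CTRL 2 and 5. Its SHP2 miR1 values were 4.17 to 4.52 (median 4.22), and its SHP2 miR2 values were 4.17, 4.26 and 4.12. The 4 tumours were again separate, by a mean of 3.65 (12.5-fold), while the other 12 covered a range of 0.40 in all.

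For ECHDC1 the 4 tumours had 6.75, 7.06, 6.90 and 7.45, and CTRL 2 and 5 had 4.06 and 3.56. SHP2 miR1 tumours had 3.46 to 3.87 (median 3.64) and SHP2 miR2 tumours 3.80, 3.38 and 3.36. The difference of the 4 from the other 12 was 3.39 (10.5-fold), with overlap among the remaining groups. HSPA4L was 7.34, 7.36, 7.17 and 7.61 in the 4 and 5.14 and 4.98 in CTRL 2 and 5, with 4.39 to 4.95 (median 4.55) with SHP2 miR1 and 4.20, 4.78 and 3.85 with SHP2 miR2. Of the 10 genes HSPA4L had the smallest difference, 2.78 (6.85-fold). Both low controls were above all 10 knockdown tumours for this gene, although the lower of them exceeded the highest SHP2 miR1 tumour only by 4.98 against 4.95.

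PLS3 took several levels outside the 4 tumours. It was 9.22, 9.45, 9.46 and 9.77 in CTRL 1, 3, 4 and 6 and 6.21 and 6.32 in CTRL 2 and 5. SHP2 miR1 tumours had 6.59 to 7.16 (median 6.90), and SHP2 miR2 tumours had 5.57, 5.79 and 5.20. So 4 levels followed each other without overlap, with the 4 high controls at the top, then SHP2 miR1, then CTRL 2 and 5, then SHP2 miR2. The 4 tumours were 3.04 above the other 12 (8.21-fold). DZIP1, in contrast, was 6.96, 7.19, 6.70 and 7.21 in the 4, 4.09 and 4.26 in CTRL 2 and 5, 3.64 to 4.17 (median 3.88) with SHP2 miR1 and 4.23, 3.79 and 4.12 with SHP2 miR2. Its lower groups overlapped, and its difference was 3.03 (8.18-fold).

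SLC6A15 was 6.57, 7.23, 6.61 and 7.37 in the 4 tumours and 3.31 and 3.53 in CTRL 2 and 5. Its SHP2 miR1 values ran from 3.18 to 3.47 (median 3.37), and its SHP2 miR2 values were 4.04, 4.18 and 3.79. Here the SHP2 miR2 tumours lay above all SHP2 miR1 tumours and above both low controls, far below the 4. The difference of the 4 was 3.41 (10.7-fold). TMCO1 was 6.65, 6.83, 6.54 and 6.89 in the 4, 3.85 and 3.54 in CTRL 2 and 5, 3.43 to 3.94 (median 3.66) with SHP2 miR1 and 3.75, 3.68 and 3.43 with SHP2 miR2. The lower groups overlapped, and the difference was 3.08 (8.45-fold).

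DSC3 was 6.36, 6.93, 6.23 and 7.01 in the 4 tumours and 3.96 and 3.87 in CTRL 2 and 5, with 3.43 to 3.79 (median 3.61) with SHP2 miR1 and 3.71, 3.86 and 3.69 with SHP2 miR2. The difference was 2.94 (7.67-fold), and both low controls were just above the knockdown tumours. LRCH2 was 6.21, 6.44, 6.21 and 6.49 in the 4, 3.12 and 3.32 in CTRL 2 and 5, 3.00 to 3.42 (median 3.27) with SHP2 miR1 and 3.25, 3.05 and 3.32 with SHP2 miR2. Its 12 lower tumours did not separate by group, and its difference was 3.12 (8.70-fold).

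**Figure D1:**
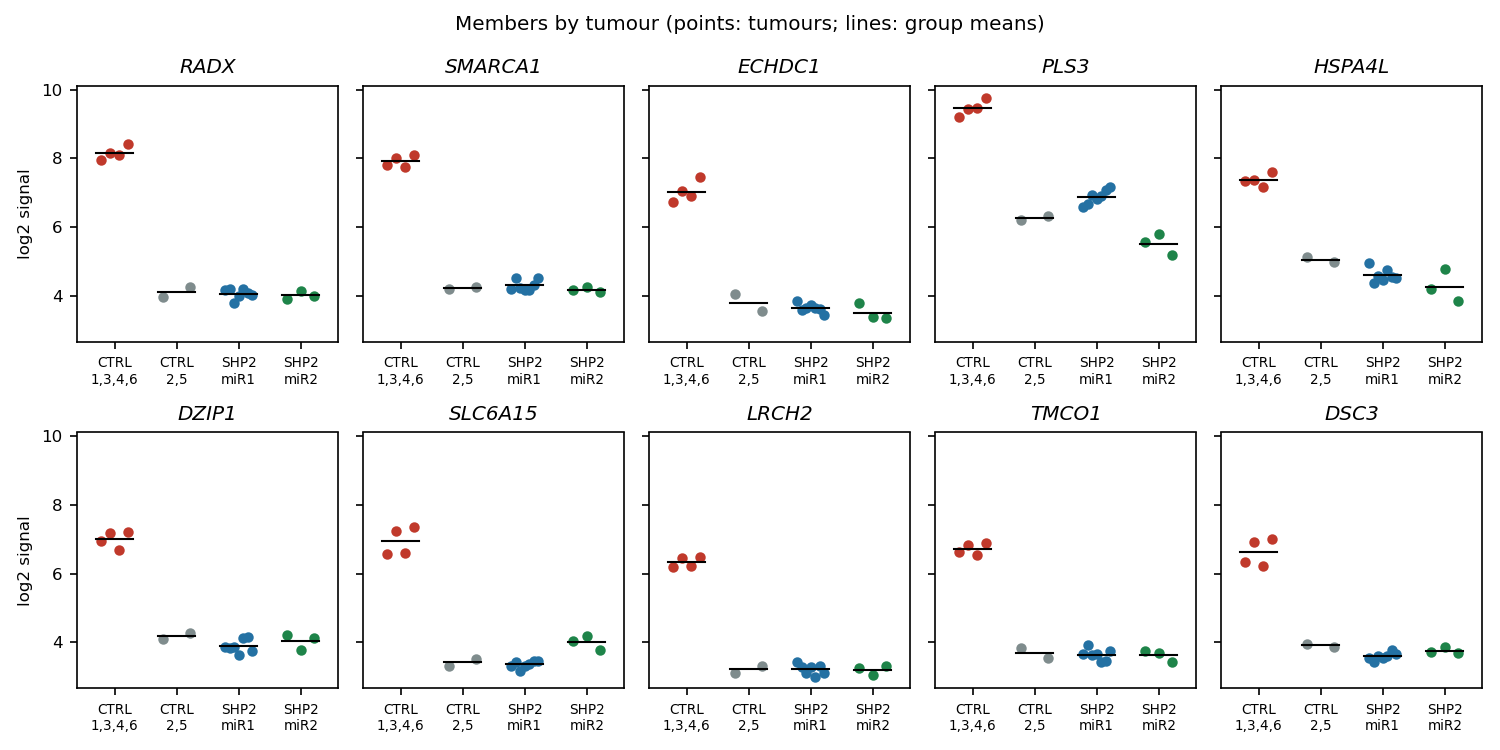
Each panel plots the log2 signal of 1 gene in the 16 tumours (points), with group means as lines, for CTRL 1, 3, 4 and 6, CTRL 2 and 5, SHP2 miR1 and SHP2 miR2. In every panel the first group lies above the other 12 tumours, and PLS3 and SLC6A15 show a further step between the SHP2 miRs.

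Within the other 12 tumours the SD of the 10 genes ran from 0.13 to 0.63, the latter for PLS3, and within the 4 from 0.15 to 0.42. In those 12 tumours LRCH2 lay between percentiles 12.2 and 18.9 of all transcript clusters of its array, those without a symbol included. RADX lay between 23.7 and 31.6 and PLS3 between 45.8 and 79.3. Whether the low genes were above background is unknown, because the table used gives no measure of background.

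The 10 genes hold ranks from 2 to 18 when all 18377 genes are ordered by the difference between the 4 tumours and the other 12. Their median difference was 3.10, against -0.06 over all genes. IRS4 ranked first (4.23) and the homeobox gene HOXD10 had rank 3 (4.02). Just above HSPA4L, the last member, stood NRN1 (2.84), and just below it HOXD13 (2.75). All 10 genes had each of the 4 tumours above each of the other 12, as did 1609 genes in all (8.76%), and 353 genes (1.92%) did so with means at least 1 apart. The choice of the members fixes their own count. In the opposite direction, 357 genes (1.94%) had each of the 4 below each of the other 12, and 5 of them were at least 1 apart.

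The 4 tumours were not equal among themselves. CTRL 6 had the highest value in 10 of 10, and the lowest value came from CTRL 1 in 5 and from CTRL 4 in 5. The median deviation from the mean of the 4 was 0.25 in CTRL 6, 0.10 in CTRL 3 and -0.17 in both CTRL 1 and CTRL 4. Over the 353 genes separated by at least 1, CTRL 6 was highest in 47.9% and CTRL 3 in 41.4%, and CTRL 4 was lowest in 60.6%. Over all 18377 genes CTRL 6 was the highest of the 4 in 24.2%. These deviations are small beside the distance of 2.03 to 3.68 between the lowest of the 4 and the highest of the 12. They are given as a description, since the 4 tumours chose the genes.

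**Figure D2:**
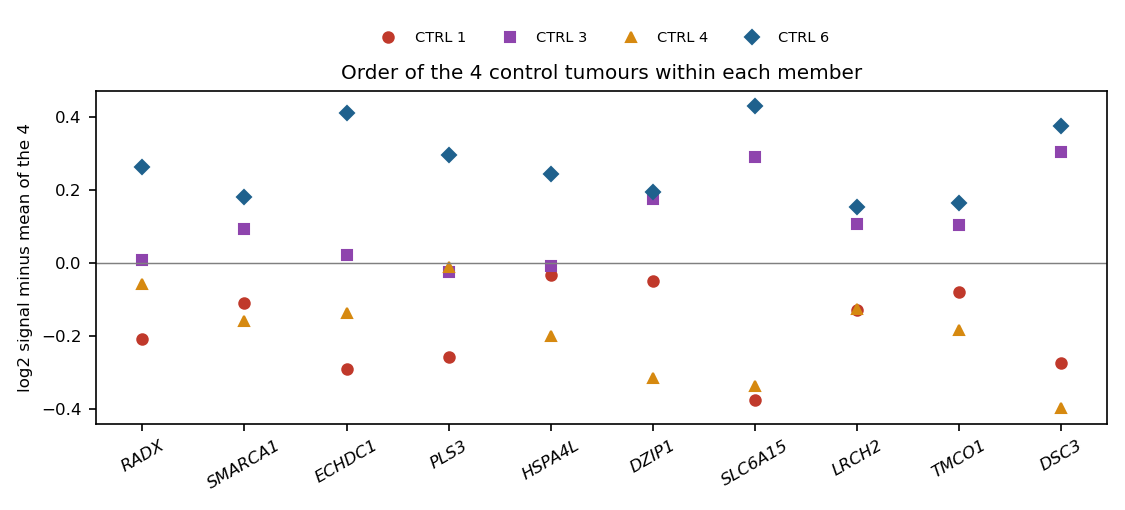
For each of the 10 genes the plot gives the log2 signal of CTRL 1, 3, 4 and 6 minus their mean. CTRL 6 is the highest point in every gene, and CTRL 1 or CTRL 4 is the lowest.

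The 4 tumours lie in both array sets. That they stand above the others within each set follows from the choice of the genes, so it is a description. In set A, RADX had a mean of 8.06 in CTRL 1 and 3 against 3.96 in CTRL 2 and 4.04 in 4 SHP2 miR1 tumours. In set B, it had a mean of 8.26 in CTRL 4 and 6 against 4.27 in CTRL 5, 4.10 in 3 SHP2 miR1 tumours and 4.02 in SHP2 miR2. For PLS3 the same controls had means of 9.33 and 9.62, against 6.21 and 6.32 in the low control of each set. The gap was less alike for ECHDC1, with 6.90 against 4.06 in set A and 7.18 against 3.56 in set B.

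The comparison between the SHP2 miRs asks whether the 10 genes differ between the constructs against SHP2. In the fit over all 16 arrays 0 of the 10 passed (limma, adjusted p below 0.05 over 18377 genes), where 22.5% of all genes did, and 1 had an unadjusted p below 0.05. Adjusted p ran from 0.0985 for PLS3 to 0.988 for LRCH2. The spread in that fit includes the control group, where these genes differ by several log2 units between tumours through their choice. The choice thus makes a call in that fit unlikely, and the count of 0 says little about the 10 genes. With the 10 knockdown tumours fitted alone, 2 of the 10 passed (29.2% of all genes), and without CTRL 1, 3, 4 and 6 also 2.

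PLS3 was higher with SHP2 miR1 than with SHP2 miR2 by 1.36 ± 0.60 (SE) over all 16 arrays (limma adjusted p = 0.0985). Over the knockdown tumours alone the difference was 1.36 ± 0.14 (95% interval 1.06 to 1.65, limma adjusted p = 3.64e-06), with 7 of 7 SHP2 miR1 tumours above 3 of 3 SHP2 miR2 tumours. The exact two-sided permutation p was 0.00833, the smallest that 120 arrangements of 7 against 3 allow. Within array set B the SHP2 miR1 tumours had 6.90 to 7.16 and the SHP2 miR2 tumours 5.20 to 5.79, a difference of 1.53. For SLC6A15 the difference of SHP2 miR1 minus SHP2 miR2 was -0.64 ± 0.65 over all 16 arrays (limma adjusted p = 0.467, exact permutation p = 0.00833). Over the knockdown tumours alone its difference was -0.64 ± 0.11 (95% interval -0.87 to -0.41, limma adjusted p = 0.000531). Within set B its values were 3.37 to 3.47 with SHP2 miR1 and 3.79 to 4.18 with SHP2 miR2, without overlap.

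The other 8 genes did not pass in the knockdown tumours alone (limma adjusted p from 0.127 to 0.940), with 95% intervals that reach from -0.42 to 0.66 at the widest. HSPA4L had a difference of 0.32 with an interval of -0.01 to 0.66, and SMARCA1 0.12 with -0.11 to 0.36. LRCH2 had 0.01, with an interval from -0.22 to 0.25. A p that misses the threshold does not show equal levels, and the intervals give the differences that these tumours allow. The median difference of the 10 genes was 0.03 and that of all genes -0.004.

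**Figure D3:**
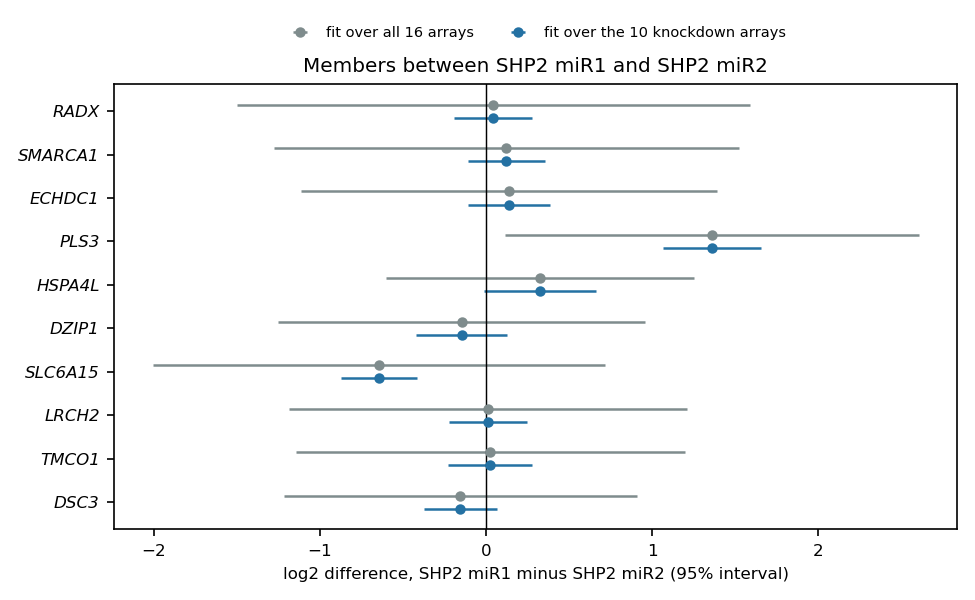
Points are the log2 difference of SHP2 miR1 minus SHP2 miR2 for each gene, with 95% intervals, from the fit over all 16 arrays and from the 10 knockdown arrays alone. Over the knockdown arrays the intervals of PLS3 (1.06 to 1.65) and SLC6A15 (-0.87 to -0.41) do not include 0.

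In the knockdown tumours the 10 genes lay closer to CTRL 2 and 5 than to the 4 high controls, but not all overlapped the low controls. HSPA4L and DSC3 were below both low controls in every knockdown tumour. PLS3 overlapped them with neither SHP2 miR, and SLC6A15 with SHP2 miR2 was above both. The difference from CTRL 2 and 5 ran from -0.46 (HSPA4L) to 0.62 (PLS3) with SHP2 miR1 and from -0.78 (HSPA4L) to 0.58 (SLC6A15) with SHP2 miR2. Against the mean of all 6 control tumours the differences ran from -2.74 to -1.52 with SHP2 miR1 and from -2.88 to -1.77 with SHP2 miR2. Both comparisons use the same knockdown tumours. The second contains the 4 tumours that chose the genes.

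By RefSeq, 4 of the 10 genes lie on the X chromosome (RADX, SMARCA1, PLS3 and LRCH2), as does IRS4. The others lie on chromosomes 6 (ECHDC1), 4 (HSPA4L), 13 (DZIP1), 12 (SLC6A15), 1 (TMCO1) and 18 (DSC3). The X chromosome holds 3.78% of the genes used and 36 of the 353 separated genes (10.2%). Of its genes 5.19% were separated, against 0.077% to 6.96% on the autosomes (median 1.42%), where chromosome 13 was highest. LRCH2 and PLS3 are near neighbours, with 2 measured genes between them that did not share the pattern, RBMXL3 with a difference of -0.05 and LUZP4 with -0.27. Across all tumours LUZP4 lay between percentiles 8.54 and 17.1 and RBMXL3 between 30.0 and 38.3. Whether they were above background is unknown, so their lack of the pattern says little.

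Most genes beside the 10 lacked the pattern, as did most genes of the array, but the share with it was above that over all genes. This excess was not tested. Of 56 neighbours that are no members, up to 3 on each side in RefSeq order, 7 had each of the 4 tumours above the other 12 (8.76% over all genes) and 3 did so by at least 1 (1.92%). These were CENPW, a centromere protein gene near ECHDC1 (1.22), ABCC4, an organic anion transporter gene near DZIP1 (1.35), and CDH2 (N-cadherin), next to DSC3 (1.43). The median of the 56 was -0.05, and they ranged from -0.94 to 1.43. Some neighbours had low signals in all tumours, such as SERPINA7 (percentiles 6.43 to 12.8) and IL13RA2 (11.1 to 19.9). For such genes a lack of the pattern says little. Genes directly beside a member varied in this. OCRL beside SMARCA1 was at 7.60 in the 4 and 7.12 in the 12, with each of the 4 above each of the 12, and PLK4 beside HSPA4L was at 7.47 and 6.71, with overlap. RNF146 beside ECHDC1 was at 7.47 and 7.42, and UCK2 beside TMCO1 at 8.81 and 8.68. DSC2, the desmocollin gene on the other side of DSC3 from CDH2, was at 8.38 and 8.58.

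**Figure D4:**
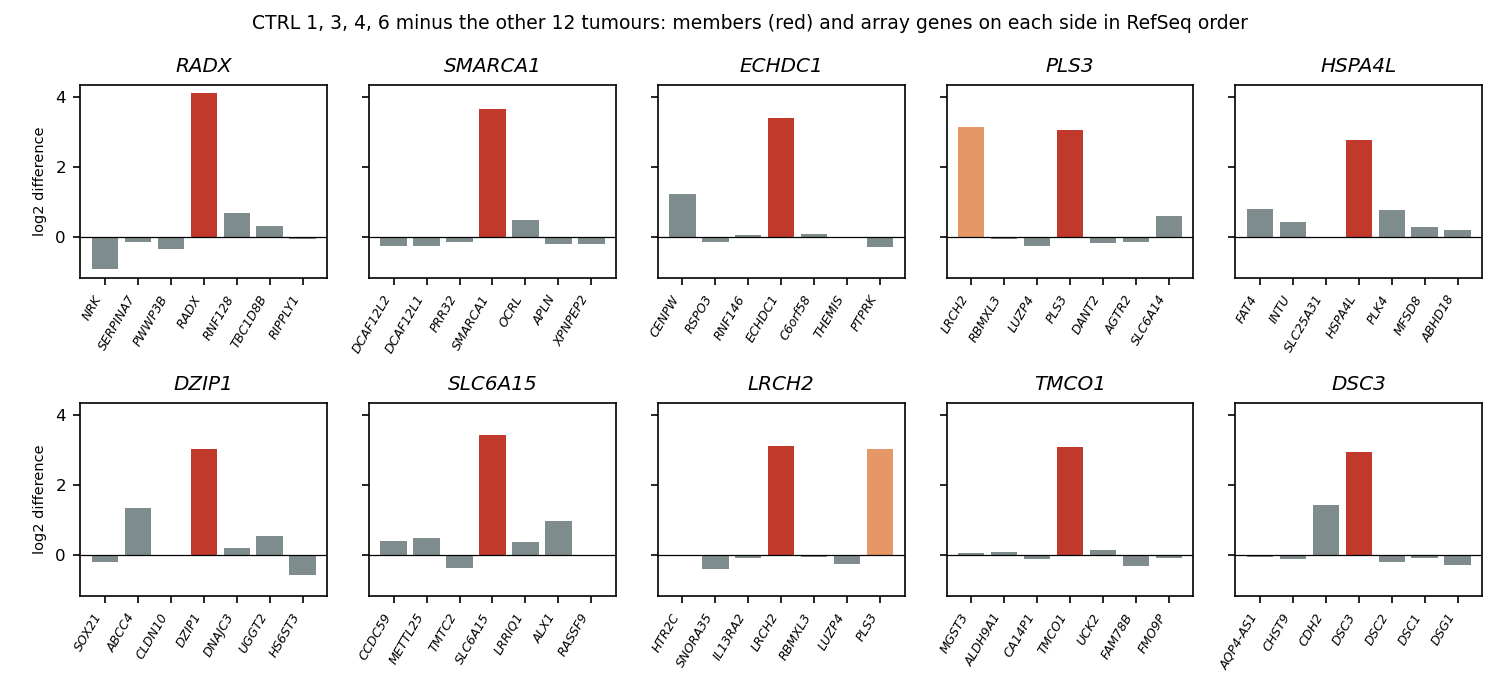
Bars are the log2 difference between the mean of CTRL 1, 3, 4 and 6 and the mean of the other 12 tumours, for each of the 10 genes (red) and up to 3 measured genes on each side in RefSeq order (grey, or orange for another of the 10). The red bars reach 2.78 to 4.10, and CENPW (1.22), ABCC4 (1.35) and CDH2 (1.43) are the tallest grey bars.

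Of genes outside the 10, those whose values over the 16 tumours were most like the mean profile of the 10 were GPR180 (Pearson r = 0.995), HOXD10, FBN2, ZNF215, SLC25A27, PLAGL1, PRTFDC1, CPNE8, MAP7D3 and TRPC1 (r = 0.990). Each r mainly follows the gap between 4 and 12 tumours, and all points share the same arrays, so it is a description. GPR180 was 7.04 to 7.45 in the 4 tumours and 4.20 to 4.75 in the other 12. FBN2, which encodes the microfibril protein fibrillin 2, was 6.39 to 6.87 and 4.10 to 4.44. The imprinted zinc finger gene PLAGL1 was 6.19 to 6.91 and 3.84 to 4.24. Among the 10 themselves r with the mean of all 10 ran from 0.938 (PLS3) to 0.998 (SMARCA1).

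The most opposed genes were AHNAK (r = -0.961), CAPN9, MYLIP, CDH1 and UCP2 (r = -0.920). Their differences were far smaller than those of the 10. AHNAK, a very large scaffold protein gene, was 8.01 to 8.26 in the 4 and 8.56 to 8.75 in the 12. CDH1 (E-cadherin) was 9.54 to 9.75 and 9.91 to 10.20. CAPN9, a calpain protease gene, differed by -0.93.

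Markers of the tumour cell and of other cell types were read in the same arrays. Of 15 luminal and HER2 genes all 15 had a lower mean in the 4 tumours than in the other 12, with a median difference of -0.31, and 1 (CDH1) had each of the 4 below each of the 12 (1.94% over all genes). ERBB2 was 10.59 to 11.08 in the 4 and 10.91 to 11.32 in the 12, so its signal was high in all tumours. A whole-tumour signal does not give the mix of cells in a tumour, which was not tested. The log2 of the summed signal of the list was 13.52 to 13.94 in the 4, 13.99 to 14.15 in CTRL 2 and 5, 13.96 to 14.19 with SHP2 miR1 and 13.84 to 14.02 with SHP2 miR2.

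A list of genes known from HEK293, a human embryonic kidney line, was also read. It was written with the IRS4, HOXD10 and LIN28B results known, so it is no independent evidence. Of its 13 genes 10 are measured, 9 had a higher mean in the 4 tumours, and 8 (IRS4, LIN28B, HOXD10, NEFL, NEFM, INA, CDH2 and VIM) had each of the 4 above each of the 12 (8.76% over all genes). The median difference was 1.39, and the log2 of the summed signal was 9.82 to 10.39 in the 4, 8.35 to 8.38 in CTRL 2 and 5, 8.31 to 8.52 with SHP2 miR1 and 8.52 to 8.86 with SHP2 miR2. PAX2, a transcription factor gene of the developing kidney, had a difference of -0.32, and the intermediate filament gene NES differed by 0.05. The part of these markers in the levels of the 10 genes was not tested.

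None of the lists of host cell type genes had a higher median in the 4 tumours. The list medians were -0.32 for fibroblast (8 of 9 lower), -0.19 for endothelial (8 of 8), -0.22 for macrophage (9 of 9), -0.35 for skeletal muscle (9 of 9) and -0.12 for adipocyte genes (6 of 6). Each of the 4 tumours was below each of the 12 in 2 fibroblast genes (COL1A1 and COL1A2) and 1 macrophage gene (LYZ), where 1.94% of all genes were. In the other host lists this held for 0 genes. Over all genes the median was -0.06, and the luminal list was lower as well (-0.31). Many host genes had low signals, such as LUM (mean 2.83 in the 4 tumours) and FABP4 (2.80), though COL1A1 was at 8.65. The lists therefore say little about the amount of host cells. The log2 of the summed fibroblast signal was 9.27 to 9.52 in the 4, 9.67 to 9.76 in CTRL 2 and 5, 9.71 to 10.04 with SHP2 miR1 and 9.96 to 10.21 with SHP2 miR2. Of 8 basal and myoepithelial genes 6 were lower and 2 higher, among them ACTA2 (0.76), with overlap between the tumours. Here too the part of the markers was not tested.

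**Figure D5:**
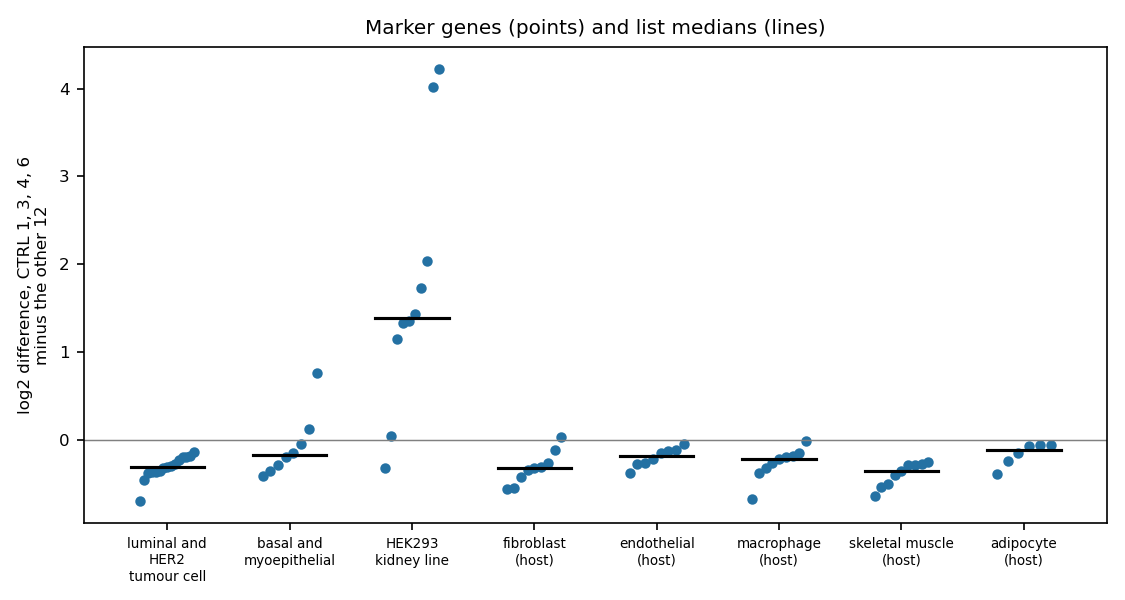
Points are the log2 differences of single marker genes between the mean of CTRL 1, 3, 4 and 6 and the mean of the other 12 tumours, by list, with list medians as lines. The luminal and host lists lie mostly below 0, and the list of kidney line genes has a median of 1.39.

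Relatives and partners of the 10 genes were counted in lists of 138 genes in all, written with earlier results of these arrays known. Both SHP2 miRs, with equal weight, were set against the control tumours with limma. Against all 6 controls 7 of the 138 were called higher (5.07%) and 29 lower (21.0%), where 5.52% and 13.1% of all genes were. Over all genes this was 1015 higher and 2399 lower, but 1641 and 2034 after quantile normalization and 1515 and 1999 after centring each array on its median. Against CTRL 2 and 5 alone 1 of the 138 was higher and 3 were lower, where 0.272% and 0.479% of all genes were. The controls in that comparison number only 2, and the difference between both comparisons was not tested. In the following the change is for both miRs against all controls, and a second value is against CTRL 2 and 5.

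Of 14 replication fork genes around RADX 8 fell against all controls (13.1% of all genes did) and 6 did not pass. RPA2, a subunit of the main single-strand binding complex, fell by 0.83 ± 0.17 (adjusted p = 0.00290), and was at 6.89 in the 4 high controls, 5.96 in CTRL 2 and 5, 6.07 with SHP2 miR1 and 5.43 with SHP2 miR2. The fork remodelling gene ZRANB3 fell by 0.51 and the helicase gene FBH1 by 0.43 (adjusted p = 0.00567 and 0.0105). Against CTRL 2 and 5 none of the 14 passed, with RPA2 at -0.21 (adjusted p = 0.903). All 3 were higher on average in the 4 tumours than in CTRL 2 and 5.

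Of 13 genes of ISWI complexes 3 fell. CECR2, a partner of SMARCA1 in the CERF complex, fell by 0.99 ± 0.24 (adjusted p = 0.00785), with means of 5.80 in the 4, 4.28 in CTRL 2 and 5, 4.18 with SHP2 miR1 and 4.43 with SHP2 miR2. SMARCA5, the sister ATPase of SMARCA1, fell by 0.35, and the histone-fold gene POLE3 fell by 0.32 (adjusted p = 0.00795 and 0.0162). Against CTRL 2 and 5 none of the 13 passed, and the value of CECR2 was 0.02. Of 13 genes of acyl-CoA metabolism around ECHDC1, ECHS1 and HADH, both enzymes of fatty acid oxidation, fell by 0.35 and 0.30 (adjusted p = 0.0150 and 0.0441), and neither passed against CTRL 2 and 5 (-0.05 and -0.12).

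Among 11 actin bundling genes 2 rose and 2 fell. CORO1C, an actin-binding coronin, fell by 0.79 ± 0.09 (adjusted p = 3.84e-05) and also against CTRL 2 and 5, by 0.64 (adjusted p = 0.0233). Its mean was 7.05 with SHP2 miR2 but 8.55 with SHP2 miR1 and 8.60 in the controls, so the low values were those of SHP2 miR2. The other plastin genes moved apart, as LCP1 (L-plastin) rose by 0.56 and PLS1 (the epithelial plastin) fell by 0.45 (adjusted p = 0.00133 and 0.0136). Against CTRL 2 and 5 LCP1 was at 0.54 (limma adjusted p = 0.171) and PLS1 at -0.26 (limma adjusted p = 0.863). LCP1 had means of 4.81 in all controls, 5.03 with SHP2 miR1 and 5.70 with SHP2 miR2. Those of PLS1 were 6.55, 6.36 and 5.84 in the same order.

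Of 19 HSP110 and HSP70 genes around HSPA4L 5 fell and 14 did not pass. The co-chaperone gene BAG2 fell by 0.51, HSPA12A by 0.37 and HSPA4, the closest relative of HSPA4L, by 0.32 (limma adjusted p = 0.00125, 0.00693 and 0.00838). HSPA4 had means of 8.79 in all controls, 8.71 with SHP2 miR1 and 8.23 with SHP2 miR2. Of 18 cilium and Hedgehog genes 5 fell, among them DZIP1L, the paralogue of DZIP1, by 0.39 (adjusted p = 0.00429). TBC1D32 fell by 0.84 and CIBAR1 by 0.62 (adjusted p = 0.00567 and 0.00842). Against CTRL 2 and 5 no gene of either list passed. The values there were -0.35 for DZIP1L, -0.08 for TBC1D32 and -0.12 for CIBAR1.

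Of 17 other SLC6 transporter genes 3 rose and 1 fell. SLC6A14, a broad amino acid importer whose gene lies 3 measured genes from PLS3, was at 7.66 in the controls, 8.19 with SHP2 miR1 and 3.91 with SHP2 miR2. Its equal-weight change of -1.62 ± 0.11 (adjusted p = 2.19e-08; -1.68 against CTRL 2 and 5, adjusted p = 2.01e-05) therefore averages a high and a low group. Of the SHP2 miRs it had the higher level with SHP2 miR1, as PLS3 did, where SLC6A15 had the lower. The GABA and betaine transporter genes SLC6A13 and SLC6A12 rose by 0.45 and 0.34 (limma adjusted p = 0.00479 and 0.0305) and did not pass against CTRL 2 and 5. Their means were 4.79 and 4.64 in all controls, 5.01 and 4.72 with SHP2 miR1 and 5.48 and 5.24 with SHP2 miR2.

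Of 15 ER translocon and calcium genes around TMCO1 1 rose and 1 fell. The calcium release channel gene ITPR1 rose by 0.49 ± 0.11 (adjusted p = 0.00626), and by 0.71 against CTRL 2 and 5 (adjusted p = 0.0479), with means of 5.77 with SHP2 miR1, 6.63 with SHP2 miR2 and 5.71 in all controls. SEC61A1, the channel subunit of the translocon, fell by 0.23 (adjusted p = 0.0396; -0.18 against CTRL 2 and 5). Of 13 desmosome genes around DSC3 1 rose and 2 fell, and PKP2 (plakophilin 2) fell by 0.28, and by 0.50 against CTRL 2 and 5 (adjusted p = 0.0280 and 0.0382). PKP2 was at 7.42 in all controls, 7.65 in CTRL 2 and 5, 7.65 with SHP2 miR1 and 6.65 with SHP2 miR2, so that only SHP2 miR2 had a mean below both sets of controls. DSG2, a desmosomal cadherin gene like DSC3, fell by 0.35 (limma adjusted p = 0.0472) and was at -0.003 against CTRL 2 and 5. Its means were 8.18 in all controls, 7.84 in CTRL 2 and 5, 8.13 with SHP2 miR1 and 7.53 with SHP2 miR2. PERP rose by 0.33. Of 5 LRCH and DOCK genes around LRCH2 none passed, with adjusted p from 0.149 upwards and LRCH1 at -0.21.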

How the data were processed

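The deposited table holds 1 log2 value per transcript cluster and array, made by the authors with R 2.10 and oligo 1.8 per the submitters' processing notes. That the scale is log2 was read from the values (1.54 to 13.63). Background correction and normalization were not given in the sources used here. Clusters were named from the platform annotation. Of 28869, those with several (1752) or no (7807) listed symbols were left out, and each of 685 genes with over 1 cluster was represented by the one with the highest mean. A model of 3 groups was fitted to all 18377 genes (limma 3.58.1, lmFit and eBayes, R 4.3.3, 13 residual degrees of freedom), with Benjamini-Hochberg adjustment and calls at an adjusted p below 0.05. The fit was tested on simulated data. The number of arrays limits the precision.

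The 10 genes and all lists were chosen with earlier results of these data known. Genes named beside them are PTPN11, IRS4, HOXD10, up to 3 genes of each related list by adjusted p, the 10 most alike and 5 most opposed genes by Pearson r, neighbours separated by at least 1, and marker genes. Neighbours, likeness and separation are descriptions. Other genes named (NRN1, HOXD13, OCRL, PLK4, RNF146, UCK2, DSC2, RBMXL3, LUZP4 and LRCH1 among them) were picked after their values were seen. Alternatives were quantile normalization, array centring, a filter that drops the third of all genes lowest in mean, all clusters, mean clusters, array weights, a robust prior with intensity trend, a replicate block, leaving out tumours, only the groups compared, no CTRL 1, 3, 4 and 6, and miRs weighted by number. The array set as a block and set B alone were added after seeing the data. Plots used matplotlib 3.10.9.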

Additional observations from a re-analysis of the deposited data

Results flagged for a closer look

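PLS3 moved in opposite directions with the SHP2 miRs relative to CTRL 2 and 5. Every SHP2 miR1 tumour was above both of these controls (mean difference 0.62) and every SHP2 miR2 tumour was below both (-0.74). The difference between the SHP2 miRs is the one tested above, which passed in the knockdown tumours alone and not over all 16 arrays. The contrasts with CTRL 2 and 5 were not tested. Single tumours far from their group were looked for in 26 sets of values, each from a group of 4 to 7 tumours. Of these sets 0 were flagged, where chance gives about 5%. The sets share tumours, so they are not separate checks. CTRL 2 and 5 and the SHP2 miR2 tumours are too few to form such a group.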

How the results depend on the processing

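The direction of the difference between the 4 control tumours and the other 12 is fixed by the choice of the genes, so its values under other settings say nothing about stability. Calls of the 10 genes between the SHP2 miRs numbered 0 in the main fit, where the choice of the genes widens the spread. They numbered 1 with array weights, 2 without CTRL 1, 3, 4 and 6, and 2 with only the groups compared. With single tumours left out they numbered 0 to 1 (PLS3, without CTRL 2 or without CTRL 5). Related genes called higher numbered 7, but 16 after quantile normalization, 11 after centring, 21 with array weights, 1 without CTRL 1, 3, 4 and 6, 17 with the array set as a block and 0 in set B alone. Leaving out single tumours gave 3 to 13. Related genes called lower numbered 29, but 44 with array weights, 3 without CTRL 1, 3, 4 and 6, 13 with the miRs weighted by number, 2 in set B alone, and 18 to 35 leaving out single tumours. Small differences between the miRs changed sign. DZIP1 turned to 0.034 after quantile normalization. LRCH2 turned to -0.016 with array weights, -0.0026 with the set as a block, -0.057 in set B and -0.066 to 0.070 leaving out single tumours. TMCO1 turned to -0.0062, -0.059, -0.077 and -0.067 to 0.091 in the same order, and RADX ran from -0.010 to 0.11. The cause was not tested.

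Replicate numbers are shared between groups, and the labels do not say that they pair tumours. Deviations of same-numbered CTRL miR and SHP2 miR1 tumours correlated above 0.1 in 5 of 6 pairs (0.21 to 0.37). The exception was replicate 4 (-0.30), whose arrays lie in different sets, while the arrays of the other 5 pairs share a set. The 6 pairs with SHP2 miR2 had -0.42 to 0.02. Not every pair passed, so the numbers were not taken as a pairing. With the replicate block 0 of the 10 genes were called between the miRs, 7 related genes were higher and 24 lower, and RADX turned to -0.021. The filter on low means kept 4 of the 10. Low signals, the 2 low controls and the 3 SHP2 miR2 tumours limit what small differences show.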
